A study of Mus musculus with 15 samples.

Results

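The genes described here are 7 genes of brown fat and of heat production, Ucp1, Cidea, Elovl3, Dio2, Prdm16, Ppargc1a and Ppargc1b, measured in mouse heart RNA after 5 months of methamphetamine (meth). They were found as the array probes whose accession belongs to 1 of these symbols, which gave 9 probes, 2 for each of the Ppargc1 genes and 1 for each other gene, out of 41174 probes and 18350 named genes. Every heart came from a C57BL/6 mouse that was 8 to 10 weeks old at the start. Meth mice received methamphetamine hydrochloride in phosphate-buffered saline (PBS) into the abdomen each week, with the dose raised step by step to 40 mg/kg, and control mice received PBS alone on the same schedule. The arrays covered 4 meth males and 4 PBS males, with 2 of each from trial 1 and 2 from trial 2, and 4 meth females and 3 PBS females from a single trial. Each array held the heart RNA of 1 mouse.

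Brown adipocytes burn fat to make heat, because uncoupling protein 1, the product of Ucp1, lets protons back across the inner mitochondrial membrane without making ATP. Sympathetic nerves start this through beta-adrenergic receptors and cAMP, which raises the transcription of Ucp1, of the deiodinase gene Dio2 and of the coactivator gene Ppargc1a. Some of these genes are also used by heart muscle itself: Ppargc1a and Ppargc1b drive mitochondrial and fatty acid programmes in cardiomyocytes, whereas Ucp1 marks brown and beige fat, and brown fat lies close to the heart and the great vessels in mice.

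The stretches just before the start of 4 of the genes are shown, because Ucp1, Ppargc1a and Dio2 are textbook targets of the cAMP signal and Prdm16 is the gene that passed the test averaged over the sexes. Each is the last 160 bases before the start in the RefSeq promoter table (build GRCm38.p6), written 5′ to 3′ on the strand of the gene, and capitals mark the cAMP response core TGACG, in either strand, and the TATA box TATAAA. Windows for the other 3 members are not printed here.
Ucp1, chr8:83290188-83290347, plus strand: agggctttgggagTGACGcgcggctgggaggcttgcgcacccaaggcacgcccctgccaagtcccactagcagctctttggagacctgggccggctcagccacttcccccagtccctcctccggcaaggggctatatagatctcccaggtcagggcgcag
Ppargc1a, chr5:51567726-51567885, minus strand: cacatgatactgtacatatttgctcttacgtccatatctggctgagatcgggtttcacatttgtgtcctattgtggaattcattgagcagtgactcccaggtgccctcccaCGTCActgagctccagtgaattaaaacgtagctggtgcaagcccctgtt
Dio2, chr12:90739039-90739198, minus strand: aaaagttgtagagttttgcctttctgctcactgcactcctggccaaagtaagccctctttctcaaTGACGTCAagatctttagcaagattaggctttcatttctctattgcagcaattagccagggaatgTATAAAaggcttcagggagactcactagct
Prdm16, chr4:154636874-154637033, minus strand: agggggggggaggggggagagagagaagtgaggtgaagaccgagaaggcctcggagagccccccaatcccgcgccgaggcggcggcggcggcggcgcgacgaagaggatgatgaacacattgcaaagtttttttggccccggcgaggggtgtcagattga

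The core TGACG began 147 bases before the start of Ucp1, 49 bases before that of Ppargc1a, where it reads CGTCA, and 95 bases before that of Dio2. At Dio2 it was part of the full palindrome TGACGTCA, and a TATAAA began 30 bases before the start. The Prdm16 stretch held none of these motifs. Of the 32851 windows in the table, each from 250 bases before to 50 bases after a start, 20.8% held TGACG on either strand, 1.79% held TGACGTCA and 13.6% held TATAAA, and the windows with TGACGTCA are among those with TGACG. For Ppargc1a and Prdm16 the window lies at an annotated start inside the gene, not at its outermost start. These matches describe the sequence and say nothing about what bound there in these hearts.

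All values below are normalized log2 signals, that is, the log2 of the background-subtracted brightness of a probe minus the 75th percentile of its array, so that 0 is the level that 75% of probes lie below. A probe's level cannot be set against another probe's, and only its changes across arrays are compared. The heart label was checked against 12 cardiomyocyte markers, all of which were well above background on all 15 arrays. The share of probes well above background was 61.3% to 71.4% per array, and the 3 arrays of slide 4 (female meth replicates 3 and 4 and female PBS replicate 3) were brighter, with a 75th percentile of 438 to 589 against 307 to 403 on the other slides. Each slide held both treatments. Of the 9 member probes 8 were well above background on all arrays, and the Elovl3 probe was on 8 of the 15. Whether a difference reflects fewer cells of a type or less RNA per cell cannot be told apart in RNA of whole tissue.

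In males, meth and PBS hearts were compared with limma across 28358 probes, and 1.11% of these passed an adjusted p of 0.05. None of the 7 members did. Before adjustment, with each gene read by its brighter probe here and below, 2 of the 7 had a p under 0.05, Prdm16 and Ppargc1b, against 12.8% of all probes. In females 0.758% of probes passed, and again none of the 7 members, with 1 of the 7, Prdm16, under an unadjusted 0.05, against 11% of all probes. Ppargc1b was also under it by its dimmer probe. The difference between the sexes in the meth effect passed for 0.138% of probes and for no member. In a contrast added after these values were seen, the meth effect averaged over the sexes, 2.65% of probes passed, 1.52% in the lower direction, and 1 of the 7 members, Prdm16. Before adjustment 3 of the 7 had a p under 0.05, Prdm16, Ppargc1a and Ppargc1b, against 15.3% of all probes.

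**Figure D1:**
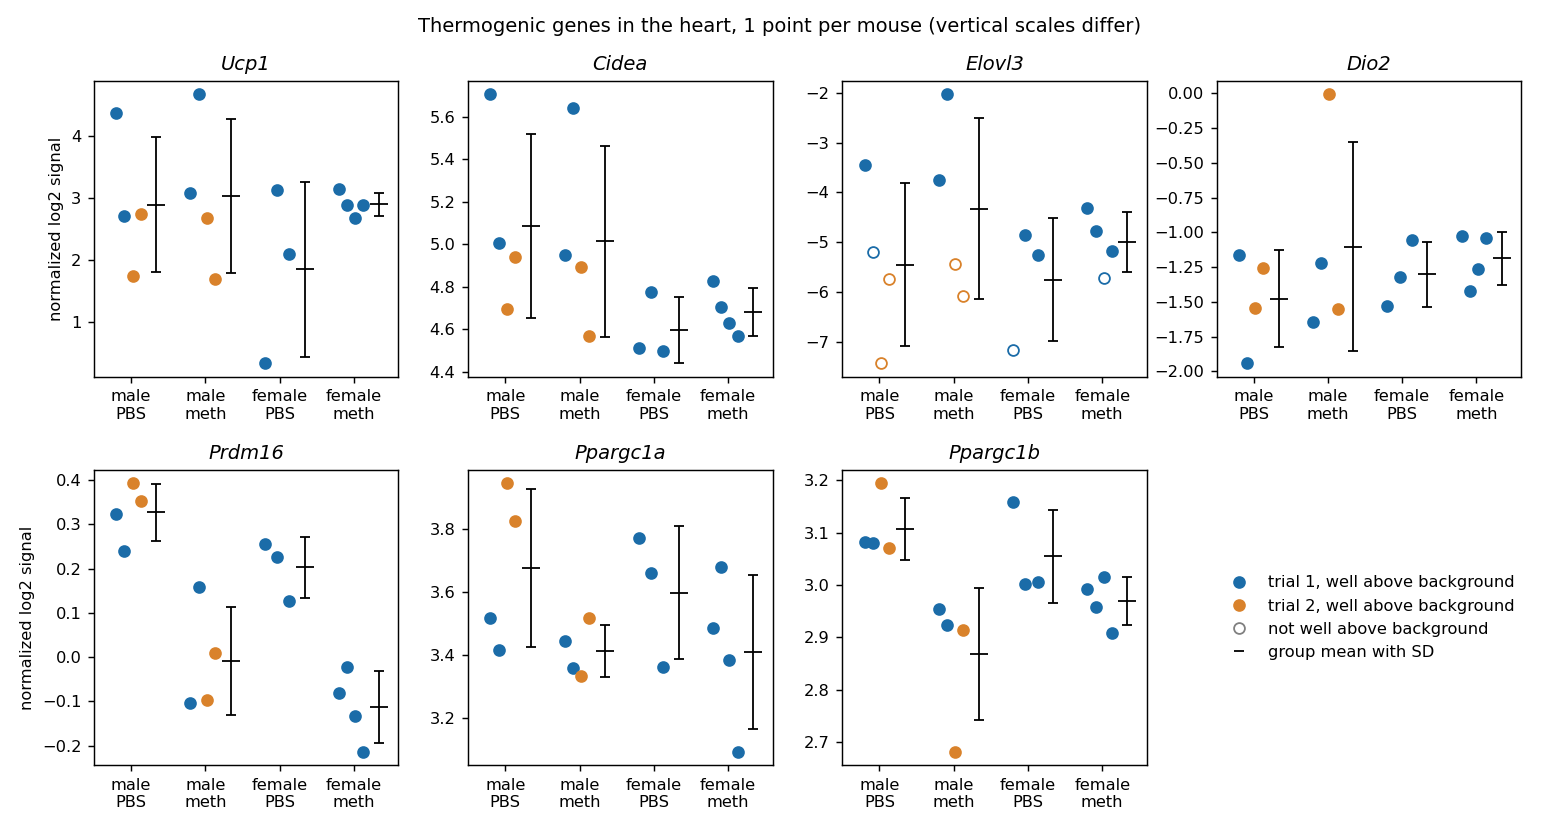
Normalized log2 signal of the 7 genes (vertical axis, each panel with its own scale) in the 4 groups, 1 point per mouse, coloured by trial, with open points not well above background and bars giving the group mean and SD. The meth points of Prdm16 lie below the PBS points in each sex, and the points of Ucp1 spread over 4.34 log2 units.

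Prdm16 encodes the zinc finger coregulator that commits precursors to the brown adipocyte fate, and it is also expressed in heart muscle and its vessels. In males it read 0.32 and 0.24 in the PBS hearts of trial 1 and 0.39 and 0.35 in those of trial 2, against -0.10 and 0.16 in the meth hearts of trial 1 and -0.10 and 0.01 in those of trial 2. In females it read 0.26, 0.23 and 0.13 after PBS and -0.08, -0.02, -0.13 and -0.21 after meth. Every meth heart thus lay below every PBS heart of its own sex, while across the sexes the highest meth heart, at 0.16, passed the lowest PBS heart, at 0.13. An exact two-sided permutation test gave p = 0.0286 in each sex, the smallest value that these numbers of mice allow.

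The male difference in Prdm16 was -0.34 (SE 0.08, adjusted p = 0.0606) and the female difference -0.32 (SE 0.08, adjusted p = 0.114), so that neither passed on its own. Averaged over the sexes Prdm16 fell by 0.33 on the log2 scale (95% interval -0.45 to -0.20, adjusted p = 0.0105), a level 1.25-fold lower after meth. The male and female differences themselves differed by -0.02 (95% interval -0.26 to 0.22, adjusted p = 0.975). Of all probes tested, 5.17% had every meth male below every PBS male, 5.93% did so in females and 0.491% did so in both sexes.

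The direction of the Prdm16 difference was the same in both trials and on every slide. This follows from the separation of the groups within each sex and is no further check. Within trial 1 the male difference was -0.26 (adjusted p = 0.621) and within trial 2 -0.42 (adjusted p = 0.148), where 0.3% and 0.356% of probes passed. The trials differed by -0.16 (SE 0.15, adjusted p = 1.00), a difference that 0 probes passed. For the same reason, meth minus PBS on the same slide and in the same sex was below 0 in 6 of 6 comparisons. It ran from -0.43 in the males of slide 1 to -0.08 in the males of slide 2. With the meth and PBS array of a replicate number, which share a slide, kept together as a block, the averaged difference was -0.31 with an adjusted p of 0.050002, just over the threshold. It also lost the call with another background correction (normexp, -0.24, adjusted p = 0.103) and with trial 1 arrays alone (-0.29, adjusted p = 0.167).

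**Figure D2:**
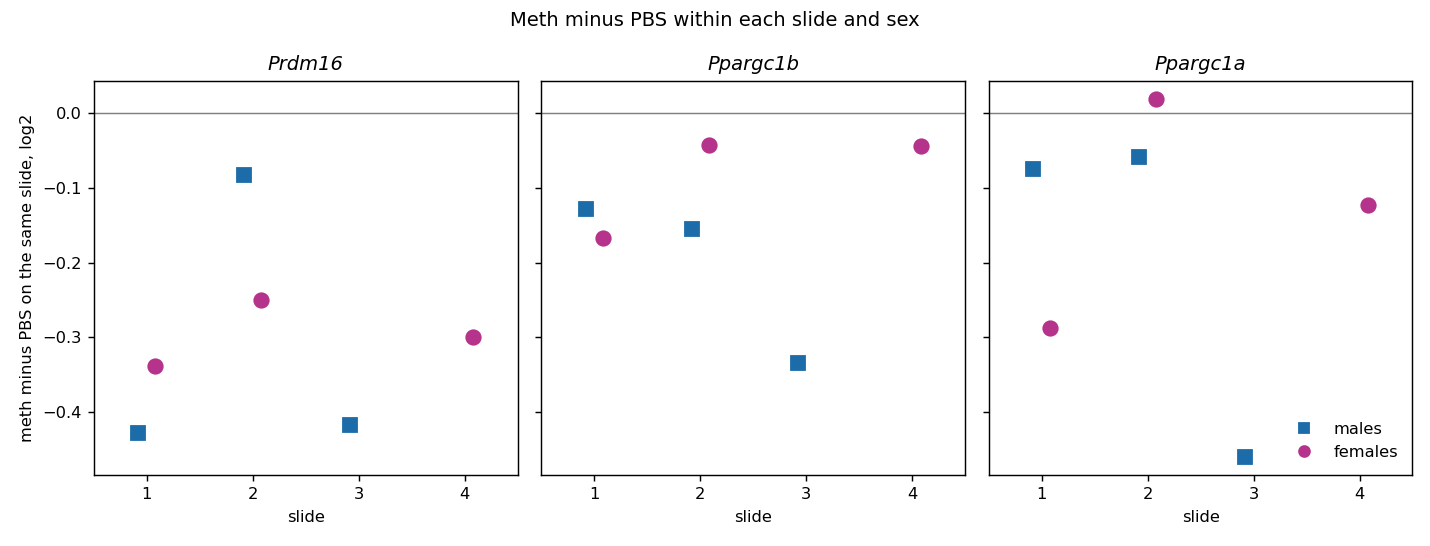
Meth minus PBS in log2 units (vertical axis) within each slide (horizontal axis) and sex for Prdm16, Ppargc1b and Ppargc1a, with 1 mouse of each treatment per point on slides 1 and 2, 2 of each on slide 3, and 2 meth mice against 1 PBS mouse on slide 4. All 6 points of Prdm16 and of Ppargc1b lie below 0, and 5 of 6 of Ppargc1a do. For Prdm16, and for Ppargc1b in males, this follows from the groups lying apart.

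Ppargc1a and Ppargc1b encode PGC-1alpha and PGC-1beta, coactivators that switch on mitochondrial and fatty acid oxidation genes through nuclear receptors and the estrogen-related receptors. Neither passed in any comparison, and by every probe the meth value was below the PBS value in each sex. By its brighter probe Ppargc1b read 3.08, 3.08, 3.19 and 3.07 in PBS males and 2.95, 2.92, 2.68 and 2.91 in meth males. The male groups thus did not overlap, a pattern that 5.17% of all probes had. In females it read 3.16, 3.00 and 3.01 after PBS and 2.99, 2.96, 3.02 and 2.91 after meth, and these overlap. By its dimmer probe the pattern was the other way about, with female groups apart (1.95 to 2.10 after PBS, 1.78 to 1.88 after meth) and male groups overlapping. Of all probes, 5.93% had the female groups apart in this direction.

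The Ppargc1b differences were small. The brighter probe gave -0.24 in males (SE 0.07, adjusted p = 0.184) and -0.09 in females (SE 0.08, adjusted p = 0.785), and the dimmer -0.15 and -0.18 with adjusted p of 0.325 and 0.324. Averaged over the sexes the probes gave -0.16 and -0.17, a 1.12-fold lower level by each, with adjusted p of 0.154 and 0.0879. By either probe meth was lower than PBS in 6 of 6 comparisons within a slide and sex. For the brighter probe in males and the dimmer in females this follows from the groups lying apart. The share of all probes with this pattern was not counted.

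Ppargc1a read 3.52, 3.41, 3.94 and 3.83 in PBS males and 3.44, 3.36, 3.33 and 3.51 in meth males. The PBS males of trial 2 held the highest values of the 15 hearts. In females it spanned 3.36 to 3.77 after PBS and 3.09 to 3.68 after meth, so that the groups overlapped in each sex. The differences were -0.26 in males (SE 0.13, adjusted p = 0.438) and -0.19 in females (SE 0.14, adjusted p = 0.724). The male difference was -0.07 within trial 1 and -0.46 within trial 2, a gap between trials that did not pass (adjusted p = 1.00). The dimmer probe gave -0.05 and -0.09 in males and females.

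**Figure D3:**
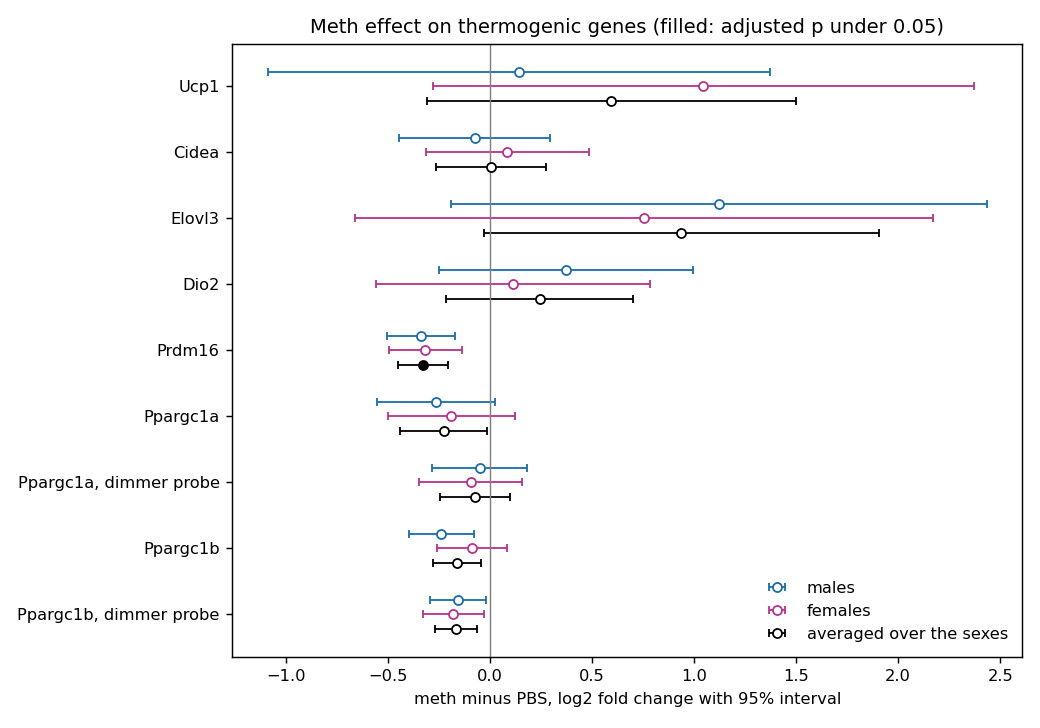
Meth minus PBS as log2 fold change with its 95% interval (horizontal axis) for each probe of the 7 genes (vertical axis), in males, in females and averaged over the sexes; filled points pass an adjusted p of 0.05. The averaged value of Prdm16, -0.33, is the filled point, and the intervals of Ucp1 and Elovl3 are the widest.

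Ucp1, the uncoupling protein itself, was well above background in every heart, and it varied more than most transcripts. Its values ran over 4.34 log2 units, a 20.2-fold range, and 0.808% of the tested probes had a range as wide, against a median range of 0.74. In PBS males it read 4.37 and 2.71 in trial 1 and 1.74 and 2.75 in trial 2, and in meth males 3.09 and 4.67 in trial 1 and 2.68 and 1.70 in trial 2. The highest meth male and the highest PBS male were both from trial 1, and the groups overlapped over most of their range. PBS females read 0.33, 3.13 and 2.10 and meth females 3.14, 2.89, 2.68 and 2.89, so that the meth females lay within 0.46 of each other while the PBS females spread over 2.80.

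The meth effect on Ucp1 was 0.14 in males (95% interval -1.09 to 1.37, adjusted p = 0.948) and 1.05 in females (95% interval -0.28 to 2.37, adjusted p = 0.594). Without female PBS replicate 1, the lowest heart of all, the female value was 0.29 with an adjusted p of 0.958. The male value turned to between -0.23 and -0.01 when any of 4 male arrays was left out. The sexes differed in the meth effect by -0.90 (95% interval -2.71 to 0.90, adjusted p = 0.805). The male interval runs from 0.471 to 2.59 times the PBS level, so that neither a rise nor a fall of 2-fold lies outside it.

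Cidea encodes a lipid droplet protein of brown fat that lets small droplets pass lipid to larger ones. It read 5.71, 5.01, 4.70 and 4.94 in PBS males and 4.95, 5.64, 4.89 and 4.57 in meth males, in each case with the trial 1 hearts first. Females lay in a narrow band, 4.5 to 4.77 after PBS and 4.57 to 4.82 after meth. The meth effect was -0.07 in males (SE 0.17, adjusted p = 0.902) and 0.09 in females (SE 0.18, adjusted p = 0.933).

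Elovl3 encodes an enzyme that lengthens very long fatty acids in brown fat and skin glands. It was well above background in 8 hearts, namely both meth males and PBS replicate 1 of trial 1, meth females 1, 2 and 4 and PBS females 2 and 3, and in no trial 2 heart. Its values ran from -7.42 to -2.04, and 0.384% of the tested probes had so wide a range. The lower end of this range was not well above background, and in the 8 hearts that were, the values ran from -5.25 to -2.04. PBS males read -3.45, -5.19, -7.42 and -5.73 and meth males -3.76, -2.04, -5.44 and -6.08. PBS females spanned -7.15 to -4.85 and meth females -5.71 to -4.30. The differences were 1.12 in males (SE 0.60, adjusted p = 0.477) and 0.76 in females (SE 0.65, adjusted p = 0.766), and values below background give only a bound. Without female PBS replicate 1, which was not well above background, the female value was 0.0553, and with low signals set to a floor it was 0.0034.

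Ucp1, Cidea and Elovl3 were highest in the same hearts. For each of them meth replicate 2 and PBS replicate 1 of the trial 1 males held the top places, 1 heart of each treatment. These arrays were singled out after their values were seen. Of 21 other brown adipocyte genes tested, 8 also had these as their top hearts, against 2.07% of all probes: Otop1, Acot11, Cpn2, S100b, Slc27a2, Letmd1, Ntrk3 and Aspg. So did 5 of 13 white and general adipocyte markers and none of 12 cardiomyocyte or 10 skeletal muscle markers. The summed signal of the white and general adipocyte markers was 8.90 in the meth heart, the highest of all, and 8.26 in the PBS heart, the 4th highest, and ran from 7.58 to 8.55 in the others. Such a sum adds signals before the log is taken, so the brightest markers, such as Fabp4 at 7.05 to 7.89, weigh most in it. The part of adipose tissue in the samples in these values was not tested, and how the hearts were trimmed is not given in the sources used here. The defining brown adipocyte genes Zic1 and Lhx8 were well above background on 0 and 1 arrays, Cpn2 on 7 and Otop1 on 8, and Ebf2 on all 15.

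The genes nearest to each of the 3 across the 15 arrays, by the root mean square (RMS) difference of log2 values after each gene's mean was taken off, were searched among 14198 named genes. For Ucp1 they were Clstn3, at 0.40 against the 1.01 by which Ucp1 itself varied, Apoc1, Plin1, Prkar2b and Acsm3. Plin1 encodes the lipid droplet coat protein of adipocytes and Prkar2b a regulatory subunit of the cAMP-dependent kinase. For Cidea they were Letmd1, Slc36a2, 4931406C07Rik, Slc24a3 and Agpat2, at 0.16 to 0.17 against 0.36. For Elovl3 they were Slc27a2, Gys2, Apoc1, Ucp1 and Acvr1c, at 0.51 to 0.63 against 1.32. The 15 points share slides and RNA samples, and the measure is a description of these arrays.

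**Figure D4:**
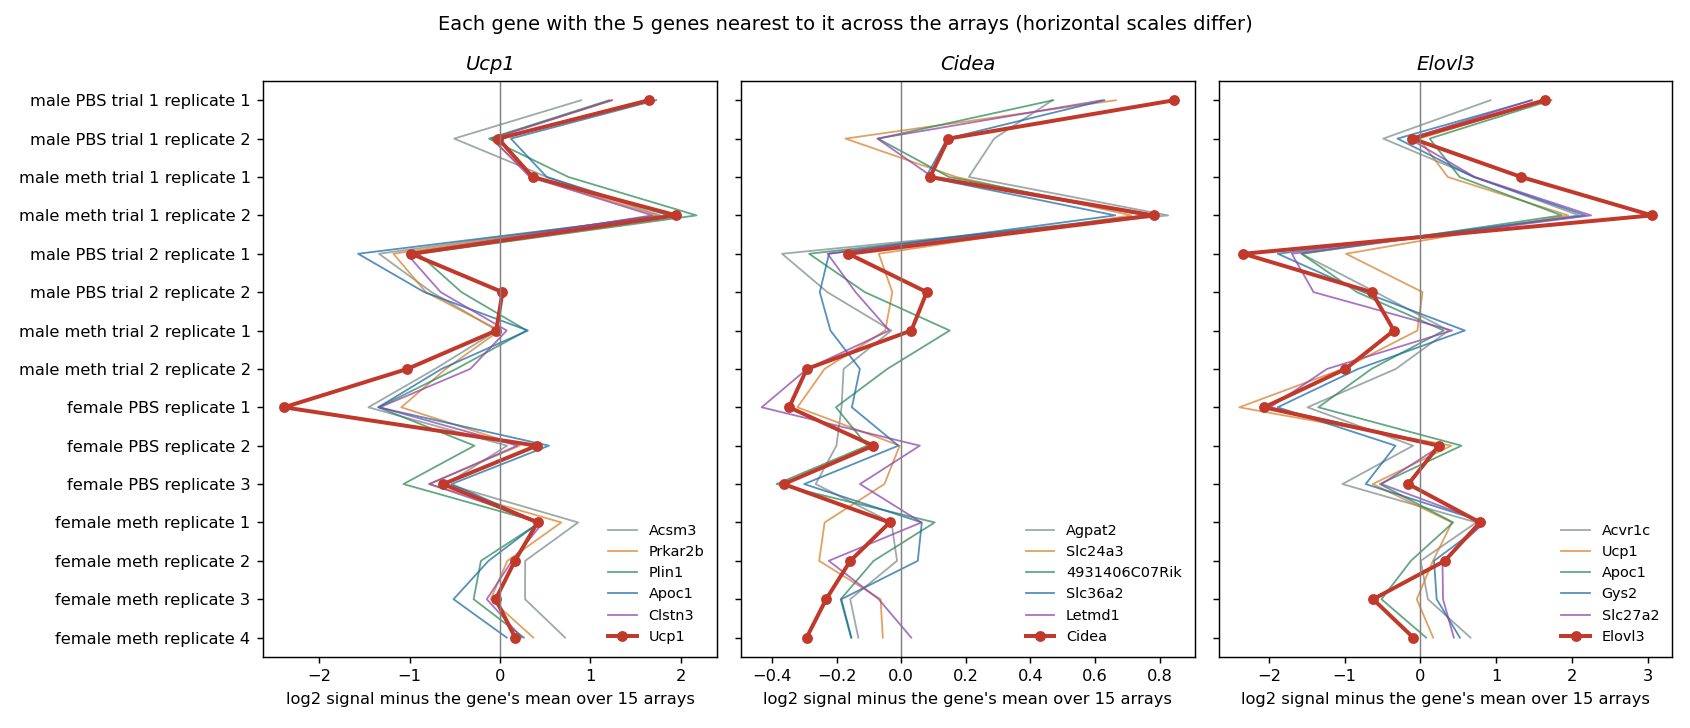
Log2 signal minus the mean of each gene over the 15 arrays (horizontal axis, each panel with its own scale) on each array (vertical axis) for Ucp1, Cidea and Elovl3, in bold, and for the 5 genes nearest to each by RMS difference. Ucp1, Cidea and Elovl3 lie farthest to the right in meth replicate 2 and PBS replicate 1 of the trial 1 males.

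Ucp1, Cidea and Elovl3 were also compared between the sexes and between the trials, and no difference passed. In PBS hearts, with the trial as a covariate, so that males of trial 1 weigh against females, Ucp1 was 1.78 higher in males (SE 0.67, adjusted p = 0.243), Cidea 0.77 higher (SE 0.20, adjusted p = 0.119) and Elovl3 1.58 higher (SE 0.72, adjusted p = 0.323). No member passed in this comparison, in which 0.48% of probes did, nor between meth males and meth females, in which 2.62% did. Before adjustment, 3 and 2 of the 7 members had a p under 0.05 in these comparisons, against 15.2% and 18.5% of all probes. Without the trial as a covariate the values were 1.04, 0.49 and 0.30. Without female PBS replicate 1 the Ucp1 value was 1.02 and the Elovl3 value 0.88.

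Cidea gave the clearest separation of these, since the 4 trial 1 males, at 4.95 to 5.71, all lay above the 7 females, at 4.5 to 4.82, a pattern that 2.44% of probes had. Trial 2 males, at 4.57 to 4.94, overlapped the females. From trial 1 to trial 2, Cidea differed by -0.54 in PBS males and by -0.57 in meth males, and Ucp1 by -1.29 and -1.69, with adjusted p between 0.345 and 0.525. Elovl3 was well above background in none of the trial 2 males, in 1 of the 2 PBS males and in both meth males of trial 1. With trial 2 values raised to the lowest signal well above background on their array, it was at least 4.66-fold higher in trial 1 in meth males. The same step gave 1.63-fold in PBS males, which is not a bound, since 1 of the 2 trial 1 values was itself not well above background. Neither difference passed (adjusted p = 0.268 in PBS males and 0.184 in meth males). Trial 2 males also lay on a slide of their own and were scanned on their own, so that trial, slide and scan cannot be told apart here. No member passed between the trials, against 0.487% of probes in PBS males and 0.307% in meth males, while 2 of 7 in each had an unadjusted p under 0.05 by the brighter probe, and 3 of 7 by any probe, against 14.3% and 13.9% of all probes.

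Dio2 encodes the deiodinase that turns thyroxine into active thyroid hormone inside the cell, in brown fat and also in heart. Its values in PBS males were -1.16, -1.94, -1.55 and -1.26, and in meth males -1.64, -1.22, -0.01 and -1.55. A single heart, meth replicate 1 of trial 2, stood at -0.01 against -1.02 for the next highest of the 15, while the rest of the meth males lay within the range of the PBS males. Females spanned -1.53 to -1.06 after PBS and -1.42 to -1.02 after meth. The meth effect was 0.37 in males (SE 0.29, adjusted p = 0.639) and 0.12 in females (SE 0.31, adjusted p = 0.950). The genes nearest to Dio2 were Nrip3, Tgif1, Col3a1, Htra4 and Col5a2, at 0.12 to 0.22 against 0.42, of which Col3a1 and Col5a2 encode fibrillar collagens.

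The nearest genes of the remaining members were found in the same way. Prdm16 had Spsb3, Dysf, Steap4, Lrfn4 and Slc26a6, at 0.09 to 0.11 against 0.19. Ppargc1a had Srek1ip1, Alpl, Nlk, Ppp2r5e and Mrm3, at 0.06 to 0.09 against 0.21, and Ppargc1b had Lyrm4, Aig1, Wdr75 and Rp9 among its nearest, at 0.05 to 0.07 against 0.12. None of the other 6 members was among the nearest 5 of Prdm16, Ppargc1a or Ppargc1b.

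The wider pathway was read from lists of related genes, each gene by its brightest probe. Of 21 brown adipocyte genes tested beside the members, none passed in either sex, with a median meth effect of -0.01 in males and -0.01 in females, against -0.03 and 0.00 for all probes. Before adjustment, where 12.8% and 11% of all probes passed, 1 of the 21 genes did in males and none in females. Many of these, such as Fabp3 (fatty acid binding, 9.04 to 9.90) and Cox7a1 (a cytochrome c oxidase subunit, 8.89 to 9.54), are also heart muscle genes, while Slc27a2, a fatty acid carrier, gave 0.99 in males and 1.21 in females with adjusted p of 0.471 and 0.463.

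Of 28 genes upstream of thermogenesis tested, which include adrenergic receptors, cAMP signalling and transcription factors, none passed in either sex, and their medians were 0.01 and 0.03. Before adjustment 5 passed in males and 1 in females, against 12.8% and 11% of all probes. The beta1 receptor gene Adrb1, through which the heart answers catecholamines, gave -0.05 in males and -0.09 in females, with adjusted p of 0.901 and 0.870. The beta3 receptor gene Adrb3, the main one of brown fat, was not analysed here. Averaged over the sexes Cebpd, a transcription factor of early adipocyte formation, rose by 0.37 (adjusted p = 0.0350), and Creb1, the cAMP response factor, was 0.34 lower in meth males than in meth females (adjusted p = 0.0298), while its other probes gave -0.29 and -0.18 and did not pass.

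Of 28 PGC-1 partners and mitochondrial targets, 27 lay below 0 in males, with a median of -0.13 against -0.03 for all probes, and 13 did in females, with a median of 0.01. The cardiomyocyte markers lay the same way, with 11 of 12 below 0 in males at a median of -0.09 and 4 of 12 in females at a median of 0.03. Before adjustment 5 genes of the PGC-1 list passed in males and 1 in females, against 12.8% and 11% of all probes. The only gene of that list to pass in males was Vegfa, the vascular growth factor gene that PGC-1alpha can switch on. It read 4.23 to 4.35 in PBS males and 3.72 to 4.05 in meth males and fell by 0.41 (adjusted p = 0.0261), while in females it read 4.29 to 4.35 and 4.22 to 4.47. Its other 3 probes gave -0.36 to -0.50 in males, of which 1 passed. By its brightest probe Vegfa was also 0.49 lower in meth males than in meth females (adjusted p = 0.0120). By that probe the meth effect differed between the sexes by -0.41 (adjusted p = 0.354). By 1 other probe it differed by -0.56 (adjusted p = 0.0333), and the remaining probes did not pass. The third PGC-1 gene, Pprc1, gave -0.22 in males and 0.12 in females and was 0.49 lower in meth males than in meth females (adjusted p = 0.00565).

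None of 19 genes of uncoupling and of heat cycles without UCP1 passed in either sex. Against 12.8% and 11% of all probes, 1 of these genes in males and none in females passed before adjustment. Among them, Ucp2, a relative of Ucp1 found in many tissues, spanned 0.04 to 0.77 in PBS males and 0.70 to 0.98 in meth males (0.44, SE 0.20, adjusted p = 0.378) and gave 0.13 in females (adjusted p = 0.909). Ucp3, the muscle relative, gave -0.07 and -0.11 (adjusted p = 0.942 and 0.938). Their brightest genes were the ADP/ATP carrier Slc25a4, at 9.29 to 10.26, and the mitochondrial creatine kinase Ckmt2, at 8.40 to 8.79, both abundant in heart muscle.

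Of 19 genes of lipid supply and relatives of the members, 1 passed in females, Prdm1, a repressor related to Prdm16 that marks plasma cells and other lineages. It read -2.10 to -1.94 in PBS females and -2.99 to -2.64 in meth females, a fall of 0.76 (adjusted p = 0.0471). In males it read -2.23 to -1.98 after PBS and -3.07 to -2.27 after meth (-0.45, adjusted p = 0.196), and averaged over the sexes it fell by 0.61 (adjusted p = 0.0108). Cidec, the white fat relative of Cidea, spanned 1.87 to 2.48 in PBS females and 3.19 to 3.93 in meth females, and 1.79 to 3.70 and 2.36 to 5.09 in males. Averaged over the sexes Cidec rose by 1.28 (adjusted p = 0.0236), whereas Cidea gave 0.01 (adjusted p = 0.991). Cideb, Dio1 and Dio3 gave 0.30, 0.55 and 0.43 in males and -0.04, 0.08 and -0.08 in females, with adjusted p of 0.551 to 0.985, and Dio1 and Dio3 were well above background on 3 and 5 arrays.

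**Figure D5:**
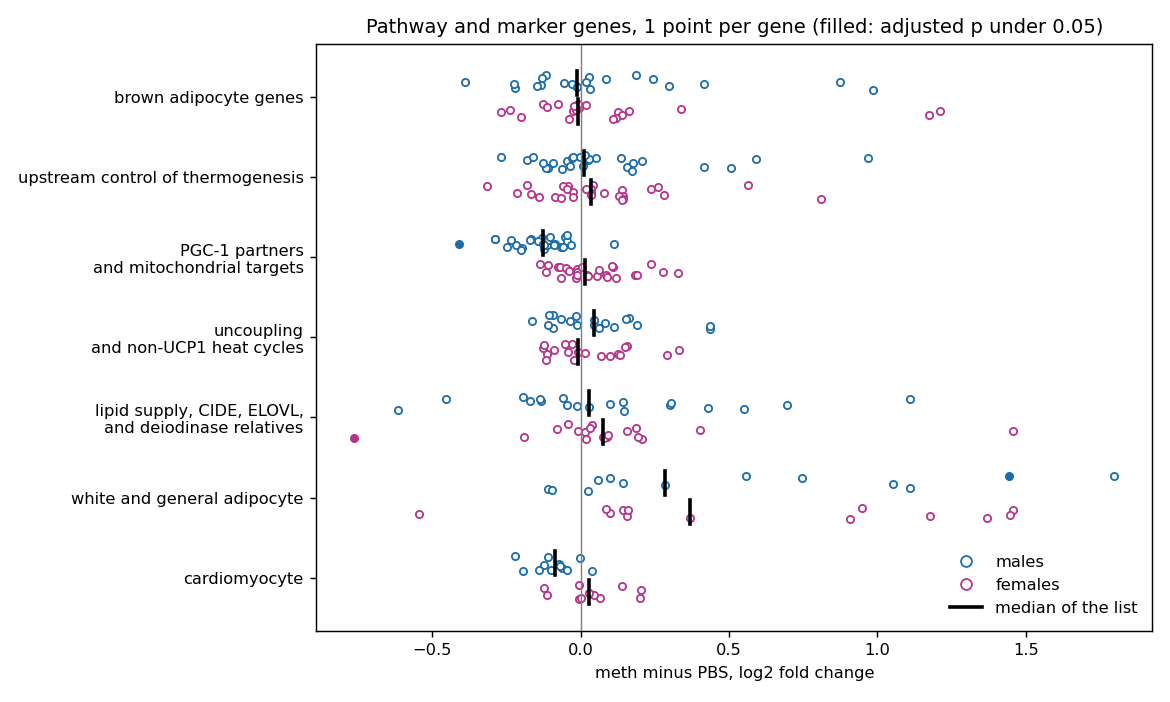
Meth minus PBS as log2 fold change (horizontal axis) for each tested gene of 5 pathway lists and 2 marker lists (vertical axis), in males and females; filled points pass an adjusted p of 0.05 and black bars are list medians. The median of the PGC-1 list in males is -0.13 and that of the white and general adipocyte markers is 0.28 in males and 0.37 in females.

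Markers of other tissues moved with meth and are given beside these values. Of 13 white and general adipocyte markers tested, 1 passed in males, against 1.11% of all probes. This was Cfd, the adipocyte gene of complement factor D, which rose by 1.44 (adjusted p = 0.0444). Averaged over the sexes 3 of the 13 passed as higher, Cfd, Retn and Cidec, against 2.65% of all probes in either direction. The summed signal of the 13 markers was 7.77 to 8.26 in PBS males, 7.96 to 8.90 in meth males, 7.58 to 7.99 in PBS females and 7.94 to 8.55 in meth females. Lep and Tmem26 were well above background on 1 and 0 arrays, and their part in the member values was not tested. Of 11 airway epithelium markers tested, 11 lay above 0 after meth in males and 9 in females. Of these, 10 passed in males and 2 in females, against 1.11% and 0.758% of all probes. The marker lists were chosen with earlier results of these data known. The airway list holds genes that the study itself reported as highly changed, such as Bpifa1, Scgb1a1, Reg3g and Ltf. These counts are therefore a description and no independent test. The summed signal of the airway markers was -0.30 to 0.00 in PBS males, 5.23 to 7.54 in meth males, 0.98 to 1.81 in PBS females and 0.60 to 2.25 in meth females.

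The 8 atrial markers all lay above 0 after meth in each sex and none passed, with sums of 9.69 to 10.16 in PBS males, 10.05 to 10.38 in meth males, 9.21 to 9.56 in PBS females and 9.56 to 9.97 in meth females. Of 10 skeletal muscle markers Tnni2 fell by 0.64 in males (adjusted p = 0.0243) and none passed in females. Their sums were 8.06 to 8.26 in PBS males, 7.81 to 8.15 in meth males, 7.56 to 8.0 in PBS females and 7.33 to 8.14 in meth females. Myh4, at 7.02 to 8.10, weighs most in these sums, while Myh2 and Myog were well above background on 0 arrays. None of 6 thymus markers passed in either sex, with sums of -0.54 to -0.03 over all hearts. Cardiomyocyte markers summed to 12.25 to 12.42 in PBS males, 12.16 to 12.37 in meth males, 11.88 to 12.25 in PBS females and 11.94 to 12.28 in meth females. The part of these tissues in the values of the 7 genes was not tested.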

How the data were processed

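Heart RNA of 15 mice was labelled with Cy3 and hybridised by the authors to Agilent mouse arrays of 1 colour. The deposited spot intensity is the background-subtracted signal of Agilent Feature Extraction (10.5.1.1 per the file headers, 9.1 per the submitters' processing notes), not normalized between arrays. A second deposited table holds log2 values of the same arrays, each the log2 signal plus a constant for that array, and was used as an alternative.

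Here control spots and outlier spots were left out, the log2 signals of a probe were averaged, and the 75th percentile of an array was taken off its values. Probes were named through accessions in the RefSeq gene table (26918 probes). Probes that 3 or more arrays measured well above background (28358) were fitted with limma 3.58.1 in R 4.3.3 (lmFit, eBayes), with 4 groups and the trial of the sample titles as a covariate, and p-values were adjusted by Benjamini-Hochberg over all of them, with a threshold of 0.05. Trials within males came from a fit with a group per trial. The script was tested on simulated data. No spot was saturated. Precision is limited by how few arrays there are.

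The members and lists were chosen with earlier results of these data known, as was the contrast averaged over the sexes. Genes named beside the members are list genes past the threshold, the brightest of a list, relatives of the members and the 5 genes nearest to each member, apart from some that are not reported here. Groups came from the labels, which name separate mice. Same-numbered meth and PBS arrays of a trial share a slide, and their deviations from the group means correlated at 0.26 to 0.66 over 23808 probes. In trial 2 males both numbers lie on slide 3, and male deviations were taken from means over both trials. A shift shared by a trial or slide can thus raise these correlations. Differently numbered arrays were not compared, so the correlations cannot show whether the number marks a pair. In 3 females a second label gives another trial, tried as an alternative. Plots were drawn with matplotlib 3.10.9.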

Additional observations from a re-analysis of the deposited data

Results flagged for a closer look

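Among 45 groups of 4 arrays tested, 2 held an array far from the others, and chance alone gives about 1 in 20. Both were Ppargc1b by its brighter probe in trial 2 males: PBS replicate 1 was the highest PBS male, at 3.19, and meth replicate 1 the lowest meth male, at 2.68.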

How the results depend on the processing

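Over 43 results on the members with up to 34 alternatives each, 35 kept their direction and their call, 5 changed sign and 3 changed their call. No member passed in females, between the sexes or between trials under any alternative run. In females these included the paired and unpaired t-tests of the study's methods, which were run only for meth against PBS within a sex. In males 0 of 7 passed, and 1 of 7, Prdm16, with the trial from the second label (adjusted p = 0.0470), with slide or scan session as a block (0.0358 and 0.0242) and without meth replicate 2 of trial 1 (0.0361); leaving out 1 array each gave 0 to 1 of 7. Averaged over the sexes, 1 of 7 passed, and 0 of 7 with normexp (Prdm16 -0.24), with trial 1 arrays only (-0.29) and with the replicate block (-0.31), while leaving out 1 array gave -0.36 to -0.31 and adjusted p of 0.00543 to 0.0343, and leaving out slide 4 gave 0.0410. The dimmer Ppargc1b probe passed averaged over the sexes with scan session as a block alone (-0.17, adjusted p = 0.0444). The replicate block changed no other call of a member.

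Leaving out 1 array gave -0.23 to 0.44 for Ucp1 and -0.22 to 0.0627 for Cidea in males, -0.0883 to 0.019 for the sex difference of Prdm16, -0.086 to 1.07 for that of Elovl3 and -0.0886 to 0.0166 for the dimmer Ppargc1a probe in males. The sex difference of Prdm16 was 0.037 with the 75th percentile over probes detected on all arrays and 0.0613 with trial 1 arrays only, that of Elovl3 was -0.34 without slide 4, and the dimmer Ppargc1a probe gave 0.0205 in males with trial 1 arrays only.

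The number of probes past the threshold also moved with the setting. For meth in males it was 314, and 43 to 667 under other settings of the fit, apart from 0 and 18 by the paired and unpaired t-test; in females it was 215 and 21 to 508, apart from 0 by either. Averaged over the sexes it was 751 and 115 to 1507, for the sex difference 39 and 0 to 65, for PBS males against females 136 and 23 to 326, for meth males against females 744 and 109 to 1788, and from trial 1 to trial 2 it was 138 and 2 to 863 in PBS males and 87 and 1 to 423 in meth males. The lowest values of these came with normexp, the replicate block, trial 1 alone, 1 sex alone or 1 array left out, and the causes were not tested. Elovl3, Dio1 and Dio3 are limited by signal over background.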
